A study of Mus musculus with 47 samples.

Results

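The genes H2-T3, H2-T18, H2-Q2, H2-D1, Mndal, Ifi204, Erdr1 and AI506816 were followed across 47 mouse T-cell lymphoblastic tumours. They are 8 of the 12393 genes named by the array, chosen because earlier results from these tumours showed that they vary between or within the study's genetic backgrounds. A probe set is a group of array probes that reports on 1 transcript, and 18 probe sets carry the symbol of 1 of these genes alone (9 for H2-D1, 2 each for H2-T3 and Mndal, 1 for each of the others). Another 4 probe sets are shared with further genes. The question was whether each gene splits whole backgrounds into a low and a high level or varies among tumours of the same background. The choice rested on this pattern, so the members' levels are described here and not tested.

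Total RNA from tumour cells was measured on Affymetrix arrays, with 1 array per tumour. The titles name 14 backgrounds. Cdkn2a knockout with retroviral insertional mutagenesis had 9 tumours and TLX1 transgenic 6. There were 3 tumours each of the p53 knockout, beta-catenin transgenic, ThPOK transgenic and Ikaros Plastic backgrounds, of the LMO1 and Nup98HoxD13 transgenics, and of the olig1-LMO1 and Tal1-LMO2 double transgenics. Pokemon transgenic, E2A knockout, Tal1 transgenic and rag E2A knockout had 2 each. Transgene promoters, inbred strain, sex, age and the alleles of the knockouts are not given in the labels, and they do not name the mouse behind each tumour. The p-values therefore reflect the spread of these samples only, which may be technical. There was no normal tissue or wild-type group. The label TLX1 positive belonged to the TLX1 transgenic tumours alone.

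Class I MHC molecules sit on the cell surface with beta-2 microglobulin. The classical ones, such as the product of H2-D1, show peptides to CD8 T cells. H2-Q2 lies in the Q region of the complex. H2-T3 and H2-T18 belong to the T region and encode thymus leukaemia (TL) antigen, which binds CD8 alpha and is displayed on thymocytes in some mouse strains and not in others. The number and sequence of class I genes differ between H2 haplotypes. Mndal and Ifi204 belong to the interferon-inducible Ifi200 family of DNA-binding proteins, a cluster whose gene content also differs between strains. Erdr1 is an erythroid differentiation regulator gene near the pseudoautosomal end of the sex chromosomes, and AI506816 is an expressed sequence with no described protein role.

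RefSeq (GRCm38.p6) listed promoters for 5 of the 8 genes. They are shown as background, since interferon and NF-kappaB are known to act through elements of class I promoters. Not every window below holds such elements. Their part in the members' levels was not tested. Each line gives the 250 bases before the annotated start, 5′ to 3′ in the direction of the gene. Capitals mark matches, on either strand, to a kappaB site (GGGGA and TCCCC on either side of a T), an IRF core (AAGTGAAA), an interferon-stimulated response element (ISRE, GAAA repeated after 2 bases of any kind) or a Y box (ATTGG).
H2-D1, chr17:35262844-35263093, plus strand: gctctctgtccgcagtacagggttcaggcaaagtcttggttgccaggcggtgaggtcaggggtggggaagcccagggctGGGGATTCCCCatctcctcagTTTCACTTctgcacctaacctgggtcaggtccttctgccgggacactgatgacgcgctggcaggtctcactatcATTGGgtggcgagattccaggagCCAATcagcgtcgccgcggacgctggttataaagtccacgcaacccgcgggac
H2-Q2, chr17:35342057-35342306, plus strand: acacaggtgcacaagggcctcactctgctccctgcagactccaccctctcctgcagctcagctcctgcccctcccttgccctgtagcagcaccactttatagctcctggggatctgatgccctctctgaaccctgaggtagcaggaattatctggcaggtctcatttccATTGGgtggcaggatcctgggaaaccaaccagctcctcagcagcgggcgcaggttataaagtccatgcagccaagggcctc
H2-T3, chr17:36190152-36190401, minus strand: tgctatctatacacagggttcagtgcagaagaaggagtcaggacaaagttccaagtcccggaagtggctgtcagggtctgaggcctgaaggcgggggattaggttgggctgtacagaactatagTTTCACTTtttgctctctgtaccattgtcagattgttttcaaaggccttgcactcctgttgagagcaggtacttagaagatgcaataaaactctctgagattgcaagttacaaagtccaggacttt
Mndal, chr1:173880188-173880437, minus strand: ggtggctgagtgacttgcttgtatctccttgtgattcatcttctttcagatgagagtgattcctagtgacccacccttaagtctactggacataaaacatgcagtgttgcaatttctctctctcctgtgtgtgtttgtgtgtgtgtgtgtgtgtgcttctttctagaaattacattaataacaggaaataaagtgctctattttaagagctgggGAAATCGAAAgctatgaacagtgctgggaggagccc
AI506816, chr5:23712668-23712917, minus strand: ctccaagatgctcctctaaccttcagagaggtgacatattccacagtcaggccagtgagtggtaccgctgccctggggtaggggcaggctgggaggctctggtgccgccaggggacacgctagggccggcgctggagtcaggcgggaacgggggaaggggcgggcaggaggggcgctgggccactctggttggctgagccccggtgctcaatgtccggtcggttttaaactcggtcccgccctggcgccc
The H2-D1 window held the kappaB letters 171 bases before the start, the IRF core at 150, and Y boxes at 76 and 53. The kappaB letters occurred in 7 of 27025 promoters of the same length (0.0259%). H2-T3 held an IRF core 126 bases before its start, a match found in 1.44% of promoters. H2-Q2 held a Y box, found in 34.5% of promoters, and Mndal an ISRE, found in 3.05%. AI506816 held none of these letters in this window. The searched motifs do not overlap in these windows. A match is a description of letters, not a shown binding site.

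Signals below are the deposited MAS5 values in arbitrary units, and they are not compared between probe sets, whose probes differ. Array medians ran from 49.6 to 106, and a signal under the median of its own array was taken as low. Log2 values are log2(signal + 15.9), so differences between low signals are understated. All 8 members were among the 8810 genes that passed the filter on low values, through 17 of their 18 probe sets. A check of the labels found a conflict: the probe set for Lmo1 was high in the LMO1 tumours and in those labelled Nup98HoxD13, and low in those labelled olig1-LMO1, so these groups are called by their labels throughout. TLX1 tumours 2, 5 and 6 had Gapdh 3'/5' control ratios of 2.86, 2.37 and 1.87 log2 units, and the next highest, in p53 tumour 1, was 0.71. The 13 tested T cell marker genes had a median summed signal of 21542. P53 knockout tumour 2 had the lowest T cell marker sum (1814), with 2 of 13 markers above the median and an endothelial marker sum of 13247. The part of these arrays' quality or cell content in the members' levels was not tested.

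AI506816 was the clearest 2-level gene. Its 23 low tumours had signals from 1.07 to 33.0 and its 24 high tumours from 381 to 1117, and no background contained both kinds. The low backgrounds were TLX1, p53, ThPOK, LMO1, Nup98HoxD13-labelled, Pokemon and Ikaros Plastic. The high backgrounds were Tal1, Tal1-LMO2, olig1-LMO1-labelled, E2A, rag E2A, beta-catenin and Cdkn2a. In the TLX1 tumours the lowest, median and highest signals were 2.51, 8.81 and 27.2. In the Cdkn2a tumours they were 659, 836 and 1117. The backgrounds nearest the gap were Ikaros Plastic (3.17, 27.7 and 33.0) below it and beta-catenin (381, 492.6 and 535) above it. Every low value lay under its array's median and every high value above it.

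The gap can be put on 1 scale for all genes. Backgrounds were ordered by their mean, and at each of the 13 places where that order can be divided the margin was the lowest tumour above minus the highest tumour below. The best of these margins was 3.02 log2 units for AI506816, with 7 backgrounds on each side. Over all 8810 genes the median best margin was -0.35, and 4 genes (0.0454%) had a margin of at least 1 with 2 or more backgrounds on each side. The others were Col4a2 (1.43) and Col4a1 (1.36), collagen IV genes low in Tal1-LMO2, E2A and rag E2A tumours, and Lmo1 (1.02). None of these 3 divided the backgrounds as AI506816 did. The differences between backgrounds held 98.6% of the log2 variance of AI506816, rank 1 of 8810, where the median gene had 53.02%.

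Erdr1 was lower in 4 whole backgrounds than in the other 10, by a narrow margin. In p53 knockout tumours its signals were 218, 299 and 31.7, in ThPOK tumours 54.1, 46.8 and 27.0, in Nup98HoxD13-labelled tumours 49.3, 92.0 and 470, and in Pokemon tumours 32.9 and 76.6. All 36 tumours of the other 10 backgrounds lay at 611 or above. The TLX1 tumours ran from 3310 through a median of 3793 to 8437, the highest value of the series, in tumour 3. The Cdkn2a tumours ran from 611 through 5596 to 6746, and tumour 8 alone was under 4002. The margin between the low and high backgrounds was 0.37 log2 units, set by Nup98HoxD13-labelled tumour 3 (470) and Cdkn2a tumour 8 (611), so the groups did not overlap but fell short of the 1-unit margin. Without that Nup98HoxD13-labelled tumour it was 0.99. The widest gap between ordered Erdr1 tumours lay elsewhere, 1.12 log2 units between 92.0 and 218, and it divided the p53 and Nup98HoxD13-labelled backgrounds. Of the 11 tumours in the 4 lower backgrounds, those under their array medians were all 3 of ThPOK and 1 each of p53, Nup98HoxD13-labelled and Pokemon.

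The 4 backgrounds of lower Erdr1 were all low for AI506816, while TLX1, LMO1 and Ikaros Plastic were low for AI506816 and high for Erdr1. Relative to the array median, 24 tumours were above for both, 17 for Erdr1 alone, 6 for neither and 0 for AI506816 alone. Erdr1 lies by the sex chromosomes' shared region, so Xist, the RNA that coats the inactive X chromosome, is given beside it. Xist was not called between backgrounds (limma F test, adjusted p = 0.159), which does not tell the sex of any tumour. The labels do not give sex, and its part in the Erdr1 levels was not tested. Xist was 17.3 to 31.7 in p53, 52.0 to 61.4 in ThPOK and 3321 to 5387 in Pokemon tumours, all of them backgrounds of lower Erdr1. It was 2521 to 3456 in the LMO1 tumours, where Erdr1 was higher. Xist in the Nup98HoxD13-labelled and the remaining backgrounds is not given here, and nothing is read from these values.

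**Figure D1:**
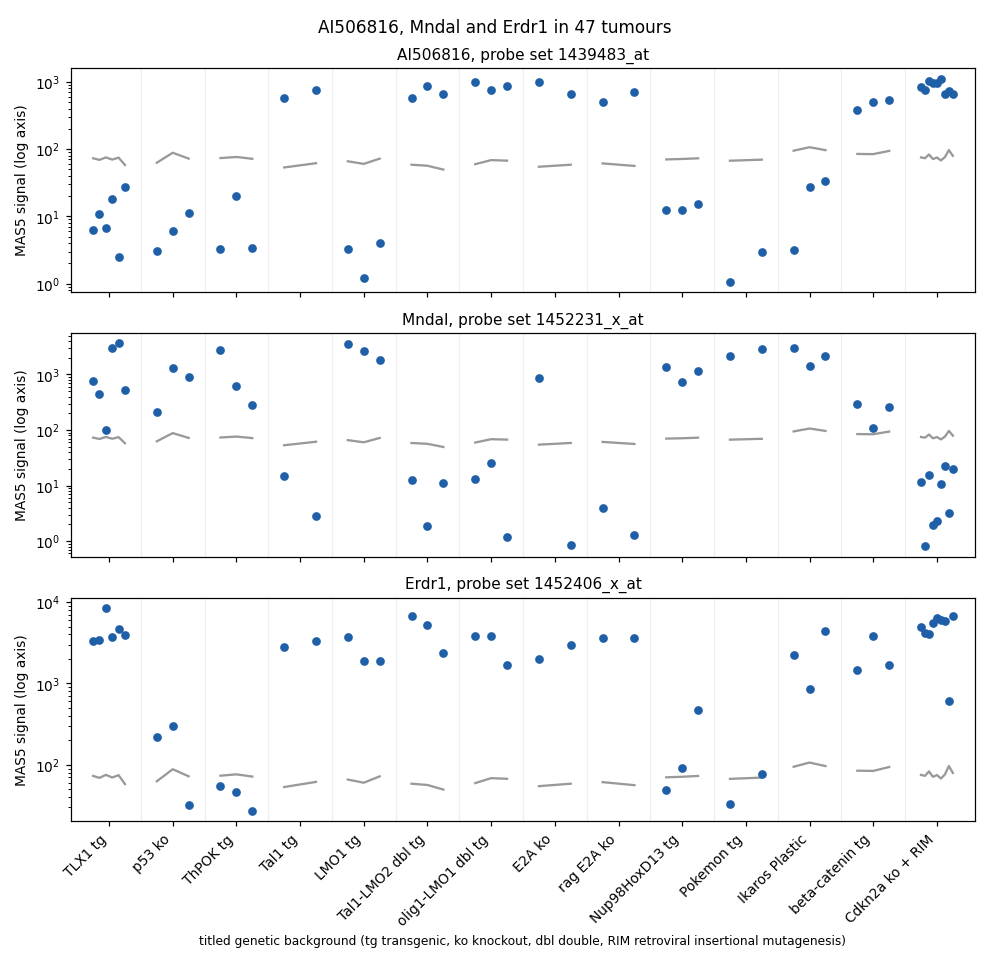
Signals of AI506816, Mndal and Erdr1 in each of the 47 tumours (points, log axis), arranged by titled background, with grey lines at each array's median. AI506816 leaves an empty band between 33.0 and 381, Mndal is mixed within the E2A knockout pair, and Erdr1 is lower in p53, ThPOK, Nup98HoxD13-labelled and Pokemon tumours than in all others.

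Mndal, a member of the Ifi200 cluster, was low in most of the backgrounds where AI506816 was high, and high where AI506816 was low. On its probe set of higher level, all tumours of Tal1 (14.6, 2.81), Tal1-LMO2 (12.6, 1.88, 11.2), olig1-LMO1-labelled (13.3, 25.2, 1.20) and rag E2A (4.03, 1.29) were low. The Cdkn2a tumours ran from 0.81 through a median of 10.5 to 22.9 and were all low too. LMO1 tumours were at 3515, 2638 and 1824, Pokemon at 2122 and 2923, and Ikaros Plastic at 2957, 1451 and 2162. The TLX1 tumours ran from 102 (tumour 3) through 643 to 3646. E2A knockout mixed both levels, with tumour 1 at 850 and tumour 2 at 0.85. Beta-catenin tumours were in between, at 299, 108 and 255.

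The 20 low tumours ended at 25.2 and the 27 others began at 102, a gap of 1.52 log2 units in the ordered tumours. Because the E2A pair lay on both sides, no cut of whole backgrounds followed that gap. The best margin, -0.25, lay elsewhere. It set rag E2A (up to 4.03) against the other 13 backgrounds (from 0.81), all low signals there, so it measures no near split. Leaving out either E2A tumour made the best margin 1.52. The second Mndal probe set followed it (Pearson r 0.99 over 47 tumours), with the E2A tumours at 611 and 0.29, and TLX1 tumour 3 at 12.9 on that probe set. There the gap was 1.89 log2 units, between 12.9 and 91.1, and TLX1 was mixed as well as E2A.

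Relative to the array median, 23 tumours were above for Mndal alone, 20 for AI506816 alone, 0 for neither and 4 for both. The 4 were the beta-catenin tumours and E2A tumour 1. Over the 14 background means the correlation between Mndal and AI506816 was -0.93, and over the 47 deviations from those means it was 0.01; the points share arrays and groups. The differences between backgrounds held 87.8% of the log2 variance of Mndal (rank 30) and 89.4% of that of Erdr1 (rank 18).

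H2-T3 showed a wide gap between tumours that did not always follow the background. On the probe set with the wider gap, 14 tumours had signals of 737 or more and 33 had 76.4 or less, a space of 3.03 log2 units. Among all tested genes 3.41% had a gap of 2 or more units in their ordered tumours, counted on each gene's representing probe set, and on that probe set H2-T3's own gap was 1.61. All tumours of Tal1 (780 and 5589), Tal1-LMO2 (1659, 2317 and 3957), E2A (5117 and 2288) and rag E2A (2529 and 2680) were high. The olig1-LMO1-labelled tumours 1 and 2 were at 2315 and 1707, and tumour 3 at 3.65. Of the Cdkn2a tumours, 5, 7 and 9 were at 737, 1951 and 942 and the other 6 between 6.65 and 76.4, with a median of 68.7 over the 9. Thus 2 backgrounds held tumours on both sides.

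The remaining 8 backgrounds were low throughout on this probe set. The TLX1 tumours ran from 2.05 through 3.08 to 17.1, and no tumour of p53, ThPOK, LMO1, Nup98HoxD13-labelled, Pokemon, Ikaros Plastic or beta-catenin exceeded 48.5. All 15 tumours above their array's median on this probe set were also above it for AI506816, and 9 tumours were above it for AI506816 only. The probe set that represents H2-T3 gave another count: 31 tumours were above the median, 10 of them not for AI506816, and every ThPOK (82.6 to 93.5), LMO1 (114 to 150.0) and Pokemon tumour (148 and 185) was among them.

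H2-T18, the other TL antigen gene, had its high values in the same tumours. They were 638 and 2947 in Tal1, 821, 879 and 2313 in Tal1-LMO2, 2489 and 1014 in E2A, and 1882 and 3231 in rag E2A tumours. The olig1-LMO1-labelled tumours again differed, with 1605, 782 and 21.4. Cdkn2a tumours 5, 7 and 9 were at 466, 1508 and 535, where the 9 ran from 29.9 through 152. Nup98HoxD13-labelled tumour 3 was higher than its H2-T3 value would place it, at 434 against 6.11 and 18.8 in the other two. The correlation between H2-T3 and H2-T18 was 0.97 over 14 background means and 0.91 over 47 within-background deviations. A probe set that the array assigns to both genes, and their similar sequences, leave the share of each transcript in these signals uncertain. On that shared probe set the same 14 tumours were at 618 or above and all others at 97.0 or below.

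By the rule of highest absolute correlation, the genes nearest to H2-T3 within backgrounds were H2-T18, H2-Bl (0.80), Tm6sf1 (0.75), Cd48 (0.66) and Notch1 (0.65). Over background means they were H2-T18, Atp5a1 (0.95), Kdm8 (-0.95), H2-Bl (0.95) and Ndufs5 (-0.94). H2-Bl is a class I gene 11 annotated genes from H2-T3. These correlations were the extremes of a search through all tested genes on the same arrays.

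H2-Q2 was above the array median in every tumour of 9 backgrounds and in some tumours of the other 5. Beta-catenin tumours were at 1356, 1433 and 1515. Of the Cdkn2a tumours 8 lay between 1063 and 2217 (median of all 9, 1763), and tumour 8 was at 31.0. The Cdkn2a background was therefore 1 of the mixed ones. Olig1-LMO1-labelled tumours were at 925, 577 and 1031, including the tumour that was low for H2-T3. Signals in between were found in Tal1 (280.0 and 610.4), Tal1-LMO2 (141 to 395), E2A (419 and 863), rag E2A (332 and 800.1), Pokemon (308 and 400.2) and Ikaros Plastic tumours (94.7 to 257), all above their array medians. The lowest of these, 94.7 in Ikaros Plastic tumour 1, exceeded its array median of 94.6 only narrowly. At the low end were p53 knockout (185, 2.04 and 5.23) and TLX1 (8.49 through 30.6 to 242).

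Several backgrounds spread widely for H2-Q2. LMO1 tumours were at 10.2, 26.0 and 617, Nup98HoxD13-labelled at 27.7, 422 and 792, and ThPOK at 1628, 146 and 257. The differences between backgrounds held 62.9% of its log2 variance (rank 2324), against 73.7% without Cdkn2a tumour 8, and its best margin was -0.70. H2-Q2 and H2-T3 were only loosely related, with r 0.48 over background means and 0.04 within backgrounds.

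**Figure D2:**
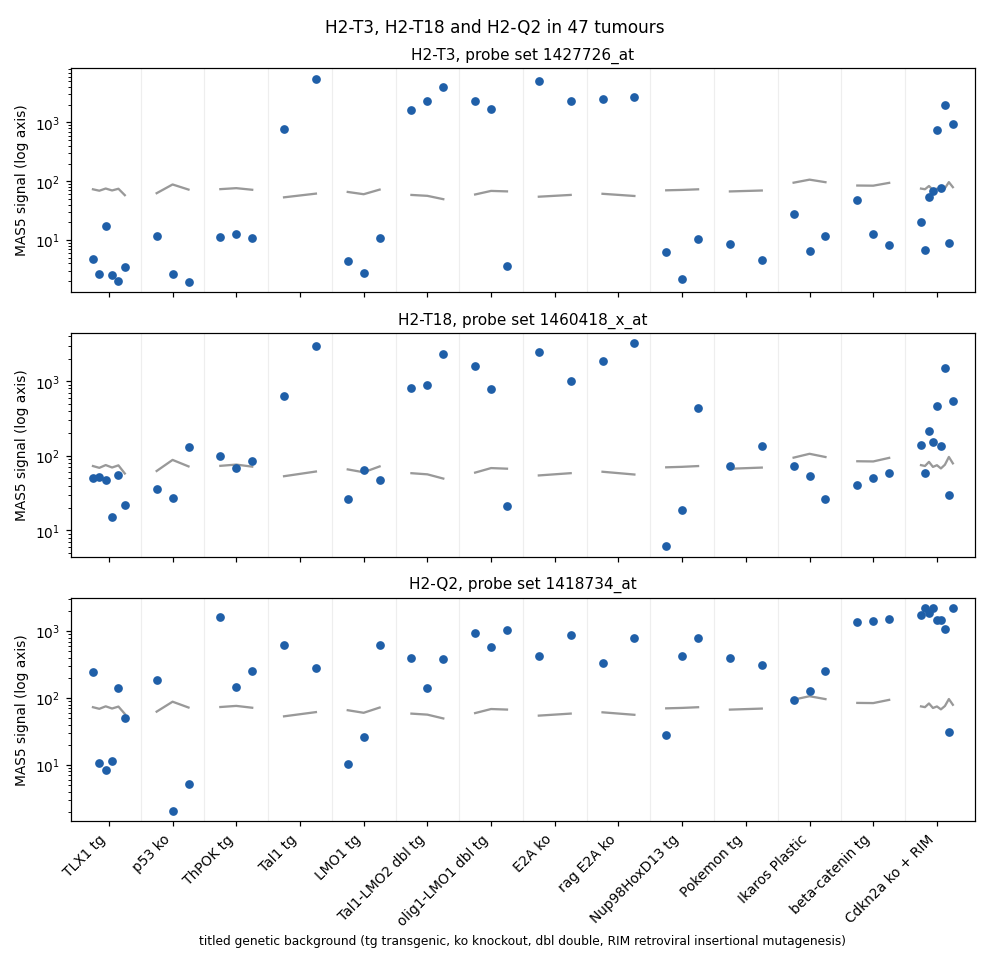
Signals of H2-T3, H2-T18 and H2-Q2 in each of the 47 tumours (points, log axis) by titled background, with grey lines at each array's median. H2-T3 and H2-T18 are both high in Cdkn2a tumours 5, 7 and 9 and both low in olig1-LMO1-labelled tumour 3, and H2-Q2 is low in Cdkn2a tumour 8 (31.0).

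H2-D1, the classical class I gene, had a between-background share of 55.2% (rank 3959) on its brightest probe set, close to the median gene. On its brightest probe set 44 tumours lay at 692 or above, and 3 were lower: TLX1 tumour 3 at 104 and LMO1 tumours 1 and 2 at 196 and 289. LMO1 tumour 3 was at 1128. The TLX1 tumours ran from 104 through 1843 to 3030 and the Cdkn2a tumours from 2759 through 3775 to 4504. These were 1 of 6 TLX1 and 2 of 3 LMO1 tumours, and all 47 signals on this probe set were above their array medians.

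The 9 H2-D1 probe sets differed among themselves. Probe set 1451784_x_at followed the brightest one (r 0.98 over 47 tumours) and read 28.4 in TLX1 tumour 3 and 42.2 and 204 in LMO1 tumours 1 and 2. Probe set 1450170_x_at ran the other way (r -0.63 with the brightest). It was high in TLX1 tumours 3 to 6 (1162, 457, 1736 and 856), all LMO1 tumours (980, 1595 and 706) and both Pokemon tumours (539 and 443). It was at 293 in Nup98HoxD13-labelled tumour 1 and 232 in beta-catenin tumour 2, and at 103 or less in the other 36 tumours.

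These 3 tumours, the lowest on 1451784_x_at, were thus high on 1450170_x_at, although the 204 of LMO1 tumour 2 exceeded its array median of 60.2. Not all tumours high on the latter were low on the former: TLX1 tumour 5 read 2670 and 1736. In the beta-catenin group tumour 2 read 640 on the first and 232 on the second, against 3662 and 3667, and 103 and 89.5, in tumours 1 and 3. In a further pattern, probe set 1426324_at was highest in the Cdkn2a tumours, from 731 through 1229 to 1691, with every other tumour at 704 or less. Its between-background share was 80.5%. One further probe set, 1451683_x_at, followed the brightest (r 0.93), and the remaining 4 were above the array median in at most 3 tumours each.

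The gene most like H2-D1 was H2-K1, the other classical class I gene on this array, with r 0.83 over background means and 0.85 within backgrounds. In TLX1 tumours H2-K1 ran from 198 through 1322 to 3116 and in LMO1 tumours from 137 to 861. Class I genes are close in sequence and 1 probe set is assigned to both H2-K1 and H2-D1, so cross-hybridization between them was not separable here.

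**Figure D3:**
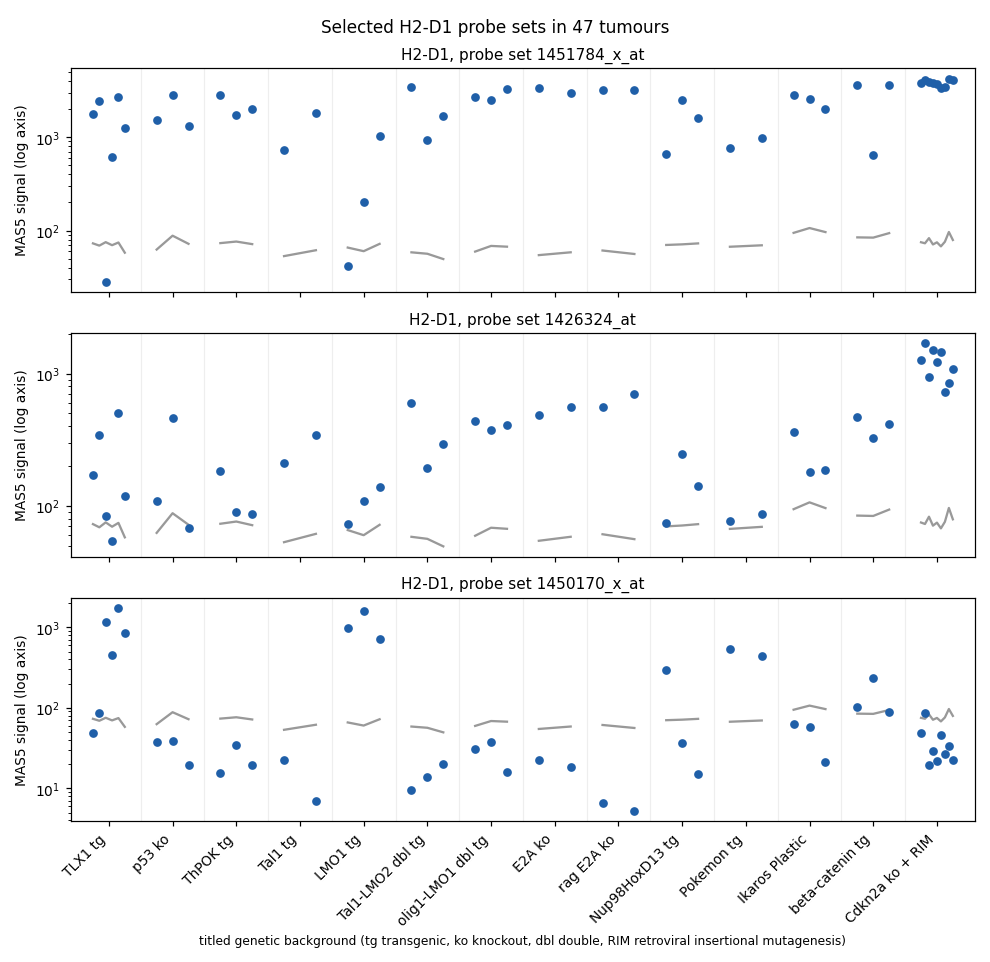
Signals of H2-D1 probe sets 1451784_x_at, 1426324_at and 1450170_x_at in each of the 47 tumours (points, log axis) by titled background, with grey lines at each array's median. LMO1 tumours 1 and 2 and TLX1 tumour 3 have the lowest signals on the first and are high on the last. LMO1 tumour 2 is still above its array median on the first. The Cdkn2a tumours (731 to 1691) lie above all others on the middle one.

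Ifi204, the second Ifi200 member, was high in Tal1 (981 and 492.6), rag E2A (425 and 391) and Ikaros Plastic tumours (501, 324 and 278). Tal1-LMO2 tumours were at 320, 492 and 125 and E2A tumours at 94.0 and 343. It was low in every tumour of 3 backgrounds, among them beta-catenin (7.15, 5.68 and 27.8) and Nup98HoxD13-labelled (33.2, 17.3 and 12.2). Cdkn2a tumours ran from 9.14 through 17.5 to 26.9, with tumour 9 apart at 207.

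Other backgrounds were mixed for Ifi204: TLX1 ran from 9.49 through 46.8 to 244, ThPOK tumours were at 231, 30.0 and 14.6, and LMO1 tumours at 340, 88.6 and 25.1. The between-background share was 70.4% (rank 1163) and the best margin -0.02. Ifi204 did not share the Mndal pattern. Their r was -0.35 over background means and 0.33 within backgrounds, and 9 tumours were above the array median for both, 18 for Mndal alone, 11 for Ifi204 alone and 9 for neither. Tal1 and rag E2A tumours, all low for Mndal, were all high for Ifi204.

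A probe set that the array assigns to Mndal, Ifi211, Ifi205 and Ifi204 together followed Mndal (r 0.92 over tumours) more than Ifi204 (0.21). It nevertheless read 133 in Tal1 tumour 1 and 79.8 and 105 in the rag E2A tumours, where Mndal was at 14.6 or less. Both genes lie on chromosome 1.

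**Figure D4:**
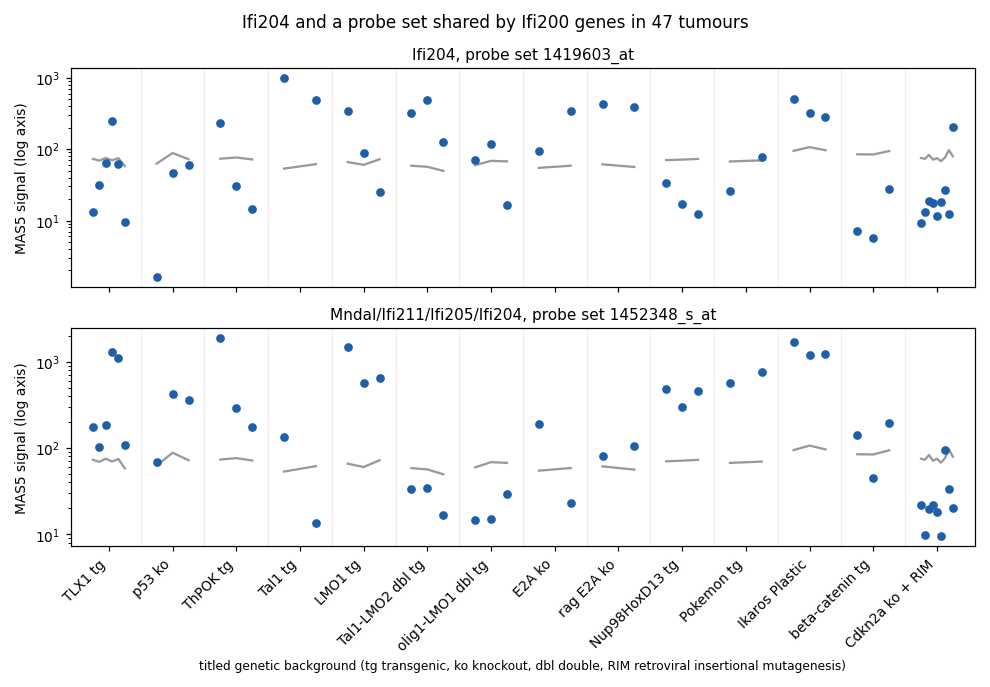
Signals of Ifi204 and of the probe set shared by Mndal, Ifi211, Ifi205 and Ifi204 in each of the 47 tumours (points, log axis) by titled background, with grey lines at each array's median. Cdkn2a tumour 9 (207) stands apart for Ifi204, and Tal1 tumours are high for Ifi204 but not for the shared probe set in tumour 2 (13.7).

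Across the 8 genes the between-background share ran from 55.2% to 98.6%, in the order H2-D1, H2-Q2 (62.9%), Ifi204 (70.4%), H2-T18 (72.1%), H2-T3 (78.6%), Mndal (87.8%), Erdr1 (89.4%) and AI506816. This order holds for the probe set that represents each gene: on 1426324_at and 1450170_x_at the share of H2-D1 was 80.5% and 80.2%, above those of H2-Q2, Ifi204, H2-T18 and H2-T3. All 8 passed the F test between backgrounds, as did 5998 of all tested genes (68.1%), and nothing is read from this since the members were chosen for it. AI506816 alone met the margin of 1, Erdr1 had a positive margin below it, and the other 6 had negative margins.

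**Figure D5:**
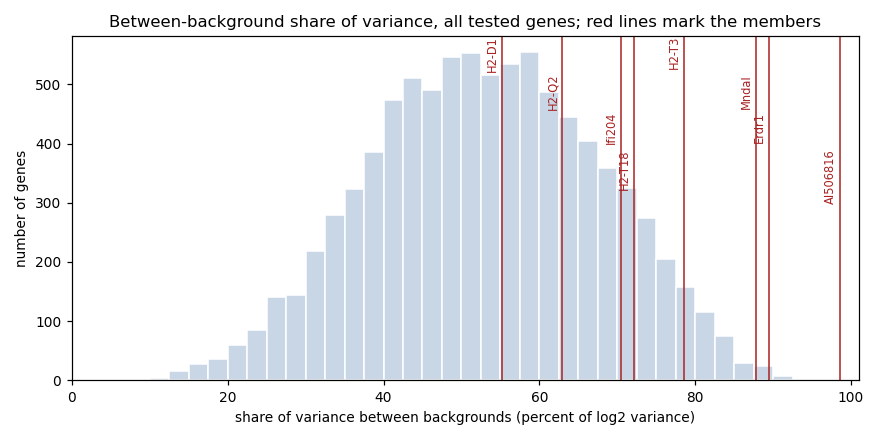
Histogram of the share of log2 variance that lies between the 14 backgrounds, in percent, for all 8810 tested genes, with red lines at the 8 members. The median gene is at 53.02%, H2-D1 lies close to it at 55.2% on its brightest probe set (80.5% on another), and AI506816 is the highest at 98.6%.

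The genes around the members in their pathways were then followed by fixed lists, each gene's background mean being set against the mean of the other 13 backgrounds with limma (p-values adjusted by Benjamini-Hochberg over the 8810 genes). In a bulk tumour, fewer cells of a type and less RNA per cell cannot be told apart. Of the other class I genes, 9 of 10 tested passed the F test, beside 68.1% of all genes. Over 140 gene and background pairs 8 were higher and 9 lower, where 6.39% and 5.08% of all pairs were. The median between-background share of the list was 61.6%. H2-Bl was higher in Tal1-LMO2 tumours (161 to 482, by 1.73 ± 0.47 log2 units (SE), n = 3, limma adjusted p = 0.020). In rag E2A tumours it was higher too (337 and 742, by 2.37 ± 0.57, n = 2, limma adjusted p = 0.025). Of all genes 1.44% were higher in the former background and 0.295% in the latter. H2-Bl was not called higher in Tal1, E2A or olig1-LMO1-labelled tumours, which also held high H2-T3 values. H2-Bl was lower in TLX1 tumours (10.4 to 46.1, n = 6, limma adjusted p = 0.00031), all of them under their array medians, so no size is given. The calls in Tal1-LMO2 and rag E2A tumours were lost when single tumours of those backgrounds were left out (adjusted p up to 0.18 and 0.45).

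H2-Q5, another Q region gene, was higher in Cdkn2a tumours (25.7 through 115 to 260, by 1.53 ± 0.26 log2 units, n = 9, limma adjusted p = 4.5e-05). H2-T24, a further T region gene, was called lower there (3.57 through 16.2 to 21.1, limma adjusted p = 0.00050), but all of these signals lay under their array medians, so no size is given. H2-K1 passed the F test (limma adjusted p = 0.015), but no single background differed from the rest. Mr1, which presents vitamin metabolites, was higher in Cdkn2a tumours (0.88 ± 0.20, limma adjusted p = 0.0010).

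Among 18 tested genes for class I peptide loading and its regulators, 15 passed the F test, beside 68.1% of all genes. Of 252 pairs 14 were higher and 19 lower, where 6.39% and 5.08% of all pairs were. In Cdkn2a tumours 9 of the 18 were lower and 2 higher, beside 14.6% and 16.1% of all genes. Tapbpl, a peptide editor, was lower in that group (53.3 through 67.1 to 107, -1.21 ± 0.19 log2 units, n = 9, limma adjusted p = 9.9e-06). Tapbp, which ties class I molecules to the peptide transporter, was lower there too (-0.87 ± 0.20, limma adjusted p = 0.0012). B2m, the invariant class I subunit, was lower by 0.51 ± 0.14 (1887 through 3133 to 5662, limma adjusted p = 0.0067), although it was not called by the F test over all backgrounds (adjusted p = 0.19).

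In TLX1 tumours 7 of the 18 loading genes were higher and 1 lower, beside 19% and 12.5% of all genes. Tap1, a subunit of the peptide transporter, ran from 270 through 470 to 760 (higher by 1.02 ± 0.21 log2 units, n = 6, limma adjusted p = 0.00042). Without TLX1 tumours 2, 5 and 6, the arrays of high 3'/5' ratio, the counts were 2 higher and 1 lower, where 7.28% and 3.78% of all genes were in that fit of 3 TLX1 tumours. The Tap1 difference was then 0.70 ± 0.29 and no longer called (limma adjusted p = 0.11). In these tumours 6 of 12 myeloid and 9 of 10 stroma markers were also higher. Without the 3 arrays 1 of 11 and 1 of 10 were. The summed myeloid signal ran from 3089 to 58275. The part of these cells in the Tap1 and other loading gene values was not tested.

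Of the other Ifi200 and DNA-sensing genes 4 of 8 passed the F test, beside 68.1% of all genes. Of 112 pairs 6 were higher and 4 lower, where 6.39% and 5.08% of all pairs were, so these counts did not exceed the background. Ifi202b, a further Ifi200 gene, was the most variable of those named. TLX1 tumours ran from 11.4 through 1401 to 5664, Tal1-LMO2 from 574 to 824, and rag E2A were at 832 and 1683. P53 tumours were at 15.0 or less and Nup98HoxD13-labelled tumours at 6.84 or less. The TLX1 difference was 2.25 ± 0.76 log2 units (n = 6, limma adjusted p = 0.022), and it was not called without tumour 3, 4 or 5 (adjusted p 0.097 to 0.13). Without tumours 2, 5 and 6 together it was 3.15 ± 0.94 and still called (limma adjusted p = 0.028). Irf3, a transcription factor downstream of DNA sensing, was higher in TLX1 tumours (655 through 825 to 999, by 0.67 ± 0.11, limma adjusted p = 2.7e-05) and still so without tumours 2, 5 and 6 (0.51 ± 0.15, limma adjusted p = 0.025).

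Of 28 tested interferon response genes, 21 passed the F test, beside 68.1% of all genes. In Ikaros Plastic tumours 11 were higher and 1 lower (beside 15% and 7.85% of all genes), and in p53 tumours 10 and 1 (12.4% and 9.34%). The counts were 9 and 2 in TLX1 tumours (19% and 12.5%) and 1 and 9 in Cdkn2a tumours (16.1% and 14.6%). Ikaros Plastic was the background of these where Mndal and Ifi204 were both high in all tumours. In rag E2A tumours, all high for Ifi204, 0 interferon genes were higher, beside 0.295% of all genes, so nothing is read from that count. A link between the members and the interferon genes was not tested. Without p53 tumour 2, the tumour of low T cell markers, the p53 counts were 2 and 1 (4.02% and 2.67% of all genes in that fit of 2 p53 tumours), and 6 of 7 endothelial and 6 of 10 stroma markers that were higher in p53 tumours became 1 and 0. Without TLX1 tumours 2, 5 and 6 the TLX1 counts were 3 and 0, beside 7.28% and 3.78% of all genes. In Ikaros Plastic tumours 6 of 10 stroma and 1 of 7 endothelial markers were higher too, the summed stroma signal ran from 4999.5 to 12142, and the array medians (94.6 to 106) were among the highest. The part of these in the interferon gene values was not tested.

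Bst2, an interferon-induced surface protein, was higher in TLX1 tumours (143 through 445 to 738, by 1.26 ± 0.23 log2 units, limma adjusted p = 9.6e-05) and lower in Cdkn2a tumours (61.7 through 108 to 152, -0.66 ± 0.20, limma adjusted p = 0.010). Ifitm3, an antiviral membrane protein, was higher in Ikaros Plastic tumours (1014 to 1780, by 1.57 ± 0.36, n = 3, limma adjusted p = 0.0023). That call was lost without Ikaros Plastic tumour 2 (adjusted p = 0.059). Irf7, the interferon-induced transcription factor, was higher in Ikaros Plastic tumours by 0.92 ± 0.31 (limma adjusted p = 0.027), and not called without tumour 2 or 3 (adjusted p 0.31 and 0.067).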

How the data were processed

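Total RNA of 47 tumours was hybridised to Affymetrix arrays. The authors deposited 1 linear signal per probe set and array, and the submitters' processing notes name MAS5. Its version, scaling target and the probe sets' build were not given in the sources used here. The deposited signals share 1 trimmed mean, so arrays had been scaled. Of 22690 probe sets, 20380 carried 1 platform symbol, 691 several and 1555 none. Probe sets with a signal above the array median in at least 2 arrays were kept. The one of highest mean log2 value stood for its gene, which left 8810 of 12393 genes. Values were log2(signal + 15.9), 15.9 being the 25th percentile of all signals.

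Limma 3.58.1 (R 4.3.3) fitted 1 mean per titled background, with an intensity trend in eBayes. An F test compared the 14 backgrounds, and each background was set against the unweighted mean of the other 13, so these comparisons share samples. Genes were called at a Benjamini-Hochberg adjusted p under 0.05. All backgrounds share 1 estimate of the spread, so those of 2 tumours are assumed to vary like the rest. The fit was tested on simulated data. The number of arrays limits the precision.

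The members and lists were chosen with earlier results of these data known. Named genes were the members, the 5 genes of highest absolute correlation with each, up to 4 genes of lowest F p per list, and a set of class I, Ifi200 and interferon genes; Nlrc5, Ifi203, Ifi205 and Ddx3y carried no probe set of their own symbol alone and Aim2 did not pass the filter. Alternatives covered the pseudocount, normalization, filter, probe set, variance model, left-out tumours and a block of title numbers. Promoters came from RefSeq tables, which held 5 of the 8 members. The order of annotated genes around H2-T18 was not used.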

Additional observations from a re-analysis of the deposited data

Results flagged for a closer look

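In the groups of 6 and 9 tumours, 8 of 40 gaps between the highest or lowest tumour and the rest passed Dixon's limit, which chance passes in about 1 in 20 groups. Cdkn2a tumour 8 stood apart for 3 probe sets. It was lowest for H2-Q2 (30.96, the nearest other at 1063) and for Erdr1 (610.5, the nearest at 4002), and highest for H2-D1 on 1451683_x_at (1883, the nearest at 1033). TLX1 tumour 3 also stood apart for 3. It was lowest for H2-D1 on 1451784_x_at (28.42, the nearest at 608), and highest for Erdr1 (8437, the nearest at 4654) and for H2-T3 on 1427726_at (17.13, the nearest at 4.84), a low value that lies under the array median. Cdkn2a tumour 9 was highest for Ifi204 (207.2, the nearest at 26.9). Cdkn2a tumour 7 was highest on the probe set shared by Mndal, Ifi211, Ifi205 and Ifi204 (95.75, the nearest at 33.8).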

How the results depend on the processing

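The margin of AI506816 stayed above 2 under the alternatives run: it was 3.49 with a pseudocount of 1, 2.11 with the median as pseudocount, and from 3.02 to 3.38 when single tumours were left out. The number of genes with a clean split, 4 in the report, was 15 with a pseudocount of 1, 1 with the median as pseudocount, 2 after quantile normalization and 7 without TLX1 tumours 2, 5 and 6. It was 222 where any margin above 0 counted, 1 where the margin had to be at least 2, and 4 to 7 when single tumours were left out. The margin of Ifi204 changed sign after quantile normalization (0.10) and that of H2-D1 when the probe set of largest interquartile range stood for it (0.054). The cause was not tested. Leaving out single tumours gave best margins of -0.065 to 0.32 for H2-T3, -0.64 to 0.13 for H2-T18, -0.70 to 0.21 for H2-Q2, -0.44 to -0.16 for H2-D1, -0.25 to 1.52 for Mndal, -0.023 to 0.95 for Ifi204 and 0.37 to 0.99 for Erdr1. With all tumours, the best cuts of H2-T3, H2-T18, H2-Q2, Mndal and Ifi204 set 1 background against 13. Such cuts cannot meet the rule of 2 or more backgrounds on each side. The 0.95 of Ifi204 came without Tal1 tumour 2, which leaves a single Tal1 tumour. The F test called 5684 to 6312 genes and 12965 to 15418 gene and background pairs were called in those fits. Without the filter 7507 of 12393 genes were called. Of 198 list counts recomputed, 182 stayed within 1.5 times and 16 did not. Among them, pairs of loading genes called higher fell from 14 to 9 without TLX1 tumours 2, 5 and 6. The title numbers did not pair the tumours: deviations of tumours of the same number had a mean correlation of -0.0013, and 13 of 47 tumours were nearest to their own number. With the number as a replicate block, 5707 genes were called by the F test in place of 5998, and 12303 pairs in place of 14149. Dim probe sets, under the array median, carry no usable order.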

Other observations

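Within 25 annotated genes on either side, the F test called 10 of 12 tested genes around H2-D1, 10 of 12 around H2-Q2, 5 of 7 around H2-T3, 7 of 11 around AI506816, 4 of 7 around Erdr1 and 2 of 3 around Mndal, beside 68.1% of all genes. H2-D1 and H2-Q2 lie close together on chromosome 17, so their counts can share genes. AI506816 lies on chromosome 5 and Mndal on chromosome 1. The genes with background means most like those of AI506816 were Isoc2b (r -0.94), Tomm40l (-0.94), Bicdl1 (-0.93), Mndal (-0.93) and Tti2 (-0.91), over 14 backgrounds, and Isoc2b was also the nearest to Mndal (0.93). For Erdr1 they were Kif3a (-0.95), Commd6 (-0.92) and Srrm2 (0.89), for Ifi204 Lats2 (-0.91), Papolg (-0.90) and Pdha1 (0.88), and for H2-Q2 Mak16 (0.92), Rpl12 (0.89) and Bag4 (0.88). These are the extremes of a search over all tested genes.

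Of the 6 tested class II presentation genes 4 passed the F test, beside 68.1% of all genes. Of 84 pairs 10 were higher and 9 lower, where 6.39% and 5.08% of all pairs were. H2-Eb1, a class II beta chain, was higher in TLX1 tumours also without tumours 2, 5 and 6 (1.76 ± 0.52 log2 units, limma adjusted p = 0.028). Of 7 sex-linked genes 2 passed the F test. The F test called 10 of 13 T cell, 7 of 7 B cell, 8 of 12 myeloid, 2 of 5 NK cell, 9 of 10 stroma and 6 of 7 endothelial markers, against the same 68.1%.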
